A study of Mus musculus with 2 samples.

Results

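The cells described here are the 164 skin innate lymphoid cells of cell set 1 that carried at least 4 UMIs of Fcer1g and Tyrobp together, and they are called members. A UMI, the unit counted, is a barcode added to each RNA molecule before amplification, so that its copies are not counted again. Members were selected on the measured UMIs of these 2 genes alone. Members were 11.4% (95% Clopper-Pearson interval 9.79 to 13.1%) of the 1441 cells of set 1 with at most 10% mitochondrial UMIs, out of 5246 deposited cells in all. They were compared with the 1186 cells of set 1 that had 0 UMIs of both genes, called zero cells. The remaining 91 cells had 1 to 3 UMIs and are given beside both.

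Innate lymphoid cells (ILCs) are lymphocytes that lack an antigen receptor of their own. They were sorted as CD45+, lineage-negative, Thy1.2+ cells from digested skin, and the mice (C57/BL6) were of postnatal day 1 or day 14, with 1 library per age. The deposited cells carry a suffix that forms 2 sets, and the suffix names neither age, so no set was given an age. The labels do not say how many mice were pooled, and 70 members had Xist and no Y-linked UMI while 60 had the reverse. There was 1 set on each side of every comparison and no replicate, so no test was run. Intervals are 95% intervals of counting error alone. Members had a median of 8885 UMIs per cell (2271 to 30338), cells with 1 to 3 UMIs 11481 and zero cells 11002.5. Summed UMIs were 1579378 in members and 13804832 in zero cells, and the level of a gene is given as CPM, its UMIs per 1000000 UMIs of the group. Of the 16-base barcodes, 4 occurred in both sets, 1 of them in a member.

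Fcer1g and Tyrobp (DAP12) encode small transmembrane adaptors whose cytoplasmic ITAM motifs recruit the kinases Syk and Zap70 when a partner receptor is engaged. The partners have short tails of their own and include Fc receptors and activating receptors of natural killer (NK) cells, so the adaptors are shared by NK cells, other innate lymphocytes, myeloid cells and mast cells. ILC3s respond to IL-23 and IL-1 and make IL-22, a cytokine that acts on epithelium. Lymphoid tissue inducer (LTi) cells are a related type that often carries CD4, whereas ILC2s depend on GATA3 and make IL-5 and IL-13.

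The stretches of 250 bases before the annotated starts of Il23r, Il22 and Fcer1g are shown because these genes stand for the receptor, the cytokine and the adaptor around which the class is described. Capitals mark AGGTCA, the half-site shared by many nuclear receptors, or its reverse complement TGACCT. Sequences are from RefSeq on GRCm38.p6 and are written 5′ to 3′ on the gene's strand.
Il23r, chr6:67491856-67492105, minus strand: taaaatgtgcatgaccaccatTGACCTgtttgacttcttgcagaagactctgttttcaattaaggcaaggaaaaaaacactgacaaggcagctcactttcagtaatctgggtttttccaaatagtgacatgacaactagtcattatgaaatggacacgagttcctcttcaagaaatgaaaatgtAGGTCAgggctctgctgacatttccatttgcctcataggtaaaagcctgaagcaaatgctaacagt
Il22, chr10:118204714-118204963, plus strand: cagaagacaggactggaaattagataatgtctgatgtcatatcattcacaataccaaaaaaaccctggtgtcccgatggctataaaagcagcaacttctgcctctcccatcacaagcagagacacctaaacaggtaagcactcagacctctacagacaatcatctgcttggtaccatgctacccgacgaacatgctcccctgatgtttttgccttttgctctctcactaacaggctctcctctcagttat
Fcer1g, chr1:171234350-171234599, minus strand: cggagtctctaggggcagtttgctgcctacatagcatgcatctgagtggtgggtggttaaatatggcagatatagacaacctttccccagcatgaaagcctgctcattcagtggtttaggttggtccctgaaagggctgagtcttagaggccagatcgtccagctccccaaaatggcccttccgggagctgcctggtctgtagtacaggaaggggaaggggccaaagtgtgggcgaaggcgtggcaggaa
The Il23r stretch held the motif once on the gene's strand, with its first base 66 bases before the start, and once on the opposite strand, at 229. The other two stretches held none, and 14.0% of the 32851 RefSeq stretches of the same length held at least 1. A match describes letters and not a bound site.

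The 2 genes of the rule were unevenly present among members. Both were detected in 117 members (71.3%), Fcer1g alone in 45 (27.4%) and Tyrobp alone in 2 (1.22%). The sum per member ran from 4 to 71 UMIs with a median of 11. Fcer1g had a median of 7 UMIs per member and at most 43, and Tyrobp a median of 3 and at most 34. Just inside the limit, 12 members had exactly 4 UMIs, and just outside it, 12 cells had 3, 10 had 2 and 69 had 1. These values chose the members and are a description only. In the plot of UMIs per cell, set 1 has a long tail above the limit and set 2 a shorter one.

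**Figure D1:**
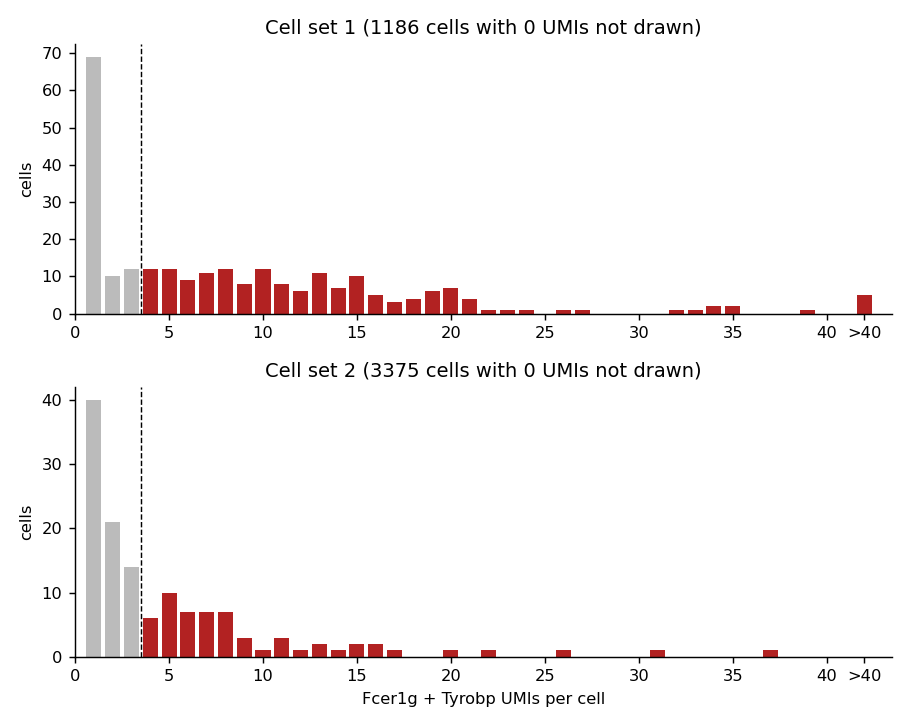
Cells of set 1 (top) and set 2 (bottom) by their UMIs of Fcer1g and Tyrobp together, with cells at 0 left out and values above 40 gathered in the last bar. Red bars are at or above the limit of 4 UMIs, which held 164 cells in set 1 and 58 in set 2.

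The label of the class names Il23r, Tmem176b, Il1r1 and Cd4 beside the rule genes, and all 4 were higher in members than in zero cells. Il23r, a chain of the IL-23 receptor, lies at chr6:67422932-67491855 of GRCm38 (mm10) on the minus strand. It stood at 53.2 CPM in members (42.4 to 65.8), 10.6 in cells with 1 to 3 UMIs and 2.61 in zero cells (1.83 to 3.61), a ratio of 20.4 (13.6 to 31.0). Il1r1, the signalling IL-1 receptor, stood at 38.6 CPM against 2.46, a ratio of 15.7 (10.1 to 24.6). Tmem176b, a membrane protein of ILC3s and myeloid cells, stood at 210 CPM against 25.6, a ratio of 8.17 (7.01 to 9.52). Its neighbour Tmem176a overlaps it on the other strand, and how reads were assigned by strand is not given in the sources used here. Cd4, the co-receptor found on many LTi cells, had 171 UMIs in members (108 CPM) and 3 in all zero cells (0.217 CPM), a ratio of 498 with a wide interval from 168 to 2440.

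Each of these markers was seen in a minority or a modest majority of members. A UMI of Tmem176b was found in 64.6% of members, of Cd4 in 37.2%, of Il23r in 28.0% and of Il1r1 in 23.8%, against 19.7%, 0.253%, 1.77% and 2.36% of zero cells. With every cell thinned to 5000 UMIs, which left out 15 members and 88 zero cells, the shares were 47.7%, 29.5%, 21.5% and 12.8% against 10.7%, 0.182%, 1.18% and 1.18%. At least 1 of the 4 markers was present in 126 members (76.8%, 69.6 to 83.1%), at least 2 in 87 (53.0%) and all 4 in 3. At least 2 were present in 1.43% of zero cells. Members held 63.6% of all Il23r UMIs, 87.7% of Cd4 UMIs and 87.5% of Il22 UMIs of set 1, while they held 9.56% of all UMIs.

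Ncr1, Ltb and Ccr6, which are also known from ILC3s or LTi cells, were not higher in members. Ncr1, the NKp46 receptor of one ILC3 subset and of NK cells, had 0 UMIs in members, which allows up to 1.90 CPM. Ltb, the lymphotoxin chain by which LTi cells act, was at 187 and 189 CPM. Ccr6, an LTi chemokine receptor, was at 11.4 CPM in members and 26.2 in zero cells. The genes behind the sort were present, with Ptprc (CD45) at 438 CPM against 374 and Thy1 at 369 against 192. Since Ncr1, Ltb and Ccr6 were not higher and markers of other ILCs were, the class is called by its 2 genes here.

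Genes were compared where the CPM of both groups summed to at least 40, and a gene was called when the ratio of CPM + 10 passed 2-fold. Of 5067 genes compared, without the 2 rule genes, 247 were higher in members (4.87%) and 129 lower (2.55%). The median log2 ratio over all of them was -0.01. Because the rule chose cells by genes of the same libraries, these counts describe the class and support nothing about it. A gene at or under 10 CPM in zero cells could enter the comparison only through its level in members, and was then bound to pass 2-fold. This fixed 75 of the 247 higher calls, and the mirror case fixed 27 of the 129 lower ones. Of the 4965 other genes compared, 172 were higher (3.46%) and 102 lower (2.05%), and the counts for each list below say how many calls were fixed in this way. The plot of levels in the 3 groups shows the genes described next.

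**Figure D2:**
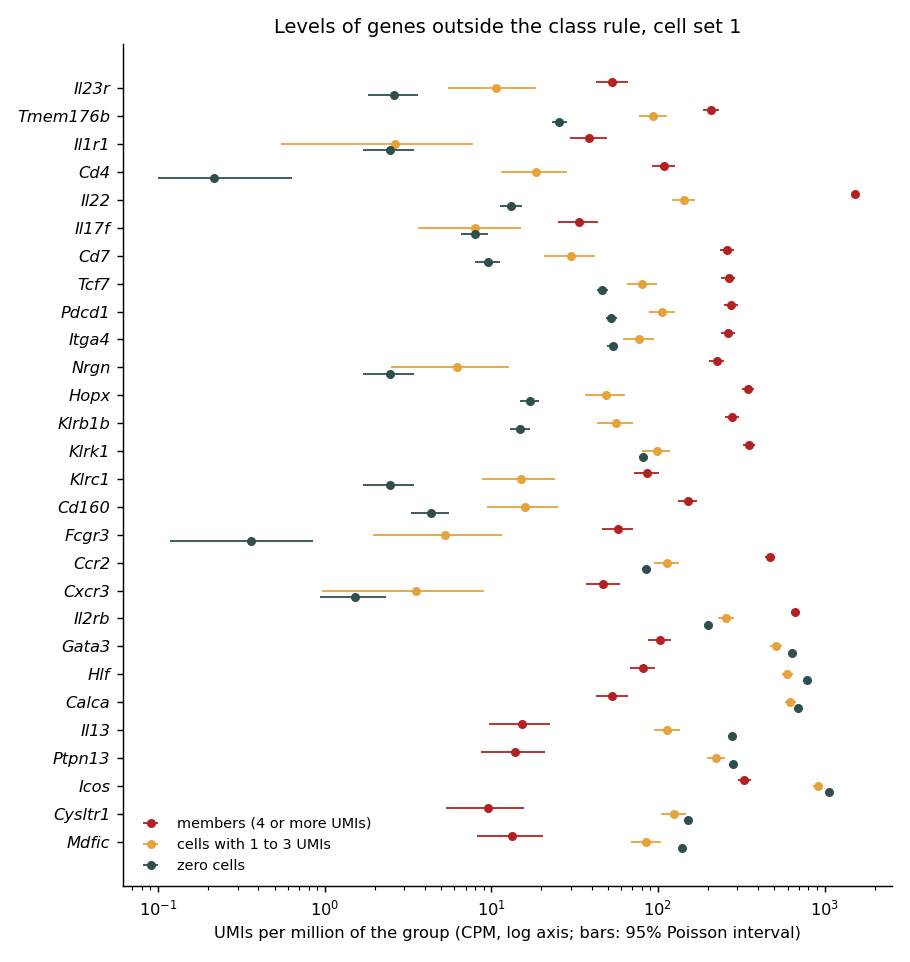
CPM (log axis) of 28 genes outside the rule in members (red), cells with 1 to 3 UMIs (orange) and zero cells (dark), with 95% Poisson intervals as bars. Cd4 reads 108 CPM in members and 0.217 in zero cells, and Gata3 103 and 637 CPM.

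Il22 had the largest log2 ratio, 6.04, among the genes named by size. It held 2393 UMIs in members, 1515 CPM (1455 to 1577), against 182 UMIs and 13.2 CPM in zero cells, a ratio of 115 (98.8 to 134). Few members made most of it: 53 members (32.3%) had any Il22 UMI, the highest single cell held 475 UMIs (19.8%) and the 5 highest held 56.5%. Among zero cells, 41 (3.46%) had an Il22 UMI. Il17f, a related cytokine of type 3 cells, was at 33.6 CPM in members and 7.97 in zero cells, a log2 ratio of 1.28 that was 0.78 without cycling cells. Of the 18 listed ILC3 and LTi markers, 11 could be compared, 7 were higher (Cd4, Il17f, Il1r1, Il22, Il23r, Tmem176a and Tmem176b) and 0 were lower. The calls of Il23r, Il1r1, Il17f and Cd4 were fixed by their low level in zero cells, and 3 of the 7 other genes compared were higher. Of the 7 higher genes, 4 are label markers. The cytokines and other effectors of type 3 cells did not move together. Of 9 listed, 7 could be compared, Il17f and Il22 were higher, and Csf2 (GM-CSF) was lower, at 16.5 CPM against 63.0. The median log2 ratio of the 7 was 0.36. Csf2, the only lower gene of this list, is also counted in the ILC2 list below.

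Genes of ILC precursors and early ILCs formed a second group. Of 14 listed, 13 could be compared, 7 were higher and 1 lower. The calls of Cd7 and Tox2 were fixed by their level in zero cells, and 5 of the 11 other genes were higher. Cd7, a surface protein of early lymphocytes, stood at 261 CPM against 9.49, a ratio of 27.6 (22.6 to 33.8). Tcf7, which encodes TCF-1, a factor needed early in the ILC lineage, stood at 265 CPM against 46.4, a ratio of 5.71 (5.04 to 6.47). Pdcd1, the PD-1 receptor that marks ILC precursors, stood at 276 CPM against 52.6, and the integrin chain Itga4 at 263 against 53.5. Tox2 was at 47.5 CPM against 2.75, Zbtb16 (PLZF) at 107 against 40.6 and Il18r1 at 230 against 109. Bcl11b, a factor that sustains ILC2s, was the 1 lower gene, at 32.9 CPM against 128. Among 20 listed ILC transcription factors, of which 18 could be compared, 5 were higher and 1 lower. The call of Tox2 among the 5 was fixed. The others included Runx3, at 291 CPM against 67.4, and Batf, at 101 against 33.9, while the lower gene was Gata3.

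Receptors and granule genes shared with NK cells and ILC1s were also higher. Of 20 listed NK and ILC1 markers, 16 were in the table and 7 could be compared. All 7 passed 2-fold, but the calls of 6 were fixed because zero cells had at most 10 CPM, and Klrk1 was the only one whose call was free, so the levels are given and nothing is read from the count. The inhibitory or activating lectin-like receptor genes differed in how many members had them. Klrb1b had a UMI in 84.8% of members and 9.78% of zero cells, with 279 CPM against 14.9. Klrc1 was found in fewer members, in 20.8% of the 53 with Il22 and 24.3% of the 111 without. Its level was alike by Il22, at 86.1 and 85.2 CPM, a ratio of 1.01 (0.694 to 1.46). Klrk1 (NKG2D), whose partner adaptors include Tyrobp, was at 351 CPM against 81.3, a ratio of 4.31 (3.89 to 4.78). Klrc1 (NKG2A) was at 85.5 CPM against 2.46, and Cd160, an immunoglobulin-like receptor, at 151 against 4.35. Klrd1 (CD94), the partner chain of NKG2 receptors, had 64 UMIs in members and 2 in zero cells, a ratio of 280 (74.3 to 2359). It was found in 12.5% of members with 4 to 19 UMIs of the rule genes and 42.9% of those with 20 or more.

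Other NK genes lay in few members. Xcl1, a chemokine for cross-presenting dendritic cells, reached 453 CPM against 1.67, yet only 17 members had a UMI and 1 of them held 302 of 716. Gzma came from 4 members, 1 of which held 101 of 136 UMIs. With the highest cell of each gene left out, Gzma, Klrd1 and Ccl5 were below the level needed for a comparison. The lineage factors of NK cells and ILC1s were near 0: Eomes had 5 UMIs and Tbx21 3 in all members, and the perforin gene Prf1 had 0. Ctsw, a protease of cytotoxic lymphocytes, was at 309 CPM against 20.7.

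Receptors that can use the 2 adaptors were examined from a list of 32, of which 26 were in the table and 6 could be compared. Klrk1 and Nkg7 were higher among the 3 whose call was free, Fcgr3, Klrb1f and Klrd1 had calls fixed by their low level in zero cells, and 13 of the 26 had no UMI in members. Nkg7 is a granule membrane protein and not a receptor. Fcgr3, the low-affinity IgG receptor that signals through Fcer1g, had 91 UMIs in members (57.6 CPM) and 5 in zero cells (0.362 CPM), a ratio of 159 (65.7 to 502). It was found in 34.8% of members and 0.422% of zero cells. Of 27 kinases and scaffolds that act below ITAMs, 15 could be compared, all with free calls, 0 passed 2-fold and their median log2 ratio was -0.13. Lyn, a Src-family kinase, was closest, at 184 CPM against 86.9, just short with the added 10 CPM, and Lat, the scaffold of T cell receptor signalling, was at 55.7 against 93.5.

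Several of the genes named by size belong to none of these groups. Nrgn (neurogranin), a calmodulin-binding protein, was at 225 CPM against 2.46 and had a UMI in 64.6% of members and 2.11% of zero cells. Hopx, a homeodomain cofactor, was at 348 CPM against 17.0, and Ckb, the brain creatine kinase, at 429 against 40.6. Car2 (carbonic anhydrase) was at 137 CPM against 1.96, Trat1, a T cell receptor associated adaptor, at 149 against 2.68, and Dll1, a Notch ligand, at 78.5 against 0.362. The non-classical MHC class I genes H2-Q6 and H2-Q7, which are near-identical copies whose reads may be split between them, were at 173 and 317 CPM against 6.59 and 24.9. Ramp1, a chain of the CGRP receptor, was at 124 CPM against 7.97. Igfbp7 was at 93.7 CPM against 3.48.

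Homing, cytokine and presentation genes were mixed. Of 23 listed chemokine and homing receptors, 14 could be compared, 5 were higher, 1 of them (Cxcr3) by a fixed call, and 1 was lower. Ccr2 was at 472 CPM against 84.5 with a UMI in 81.1% of members, and Cxcr3 at 46.9 against 1.52, while Itgae (CD103), which binds epithelial E-cadherin, was lower, at 26.6 CPM against 83.0. Of 24 cytokine receptors, 14 could be compared, 4 were higher and 1 lower, and the calls of Il23r, Il1r1 and Il6ra among them were fixed. Il2rb, shared by IL-2 and IL-15 receptors, was at 666 CPM against 200.2, and Il6ra at 1.27 against 43.7. Of 12 MHC class II and presentation genes, 5 could be compared. Cd74 and Ctss, whose calls were free, were both higher, and the calls of H2-Eb1, H2-Ab1 and H2-Aa were fixed by their low level in zero cells. H2-Aa was at 84.2 CPM against 2.54, from 15 members. Of 12 interferon response genes, 7 could be compared and 5 were higher, 1 of them (Ifitm1) by a fixed call, with Bst2 at 235 CPM against 59.3 and Ifitm2 at 324 against 18.8.

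The ILC2 programme was lower in members. Of 16 listed ILC2 markers, 9 could be compared, 7 were lower and 0 higher. The calls of Il5, Il4 and Hs3st1 were fixed, here because members had at most 10 CPM, and 4 of the 6 other genes were lower. These were Gata3, Il13, Calca and Csf2, the last also in the list of type 3 effectors. Gata3 stood at 103 CPM (87.4 to 120) against 637 (623 to 650), 6.21-fold lower (5.31 to 7.30), and was still seen in 47.6% of members. Il5 had 1 UMI in all members against 169 CPM in zero cells, 267-fold lower with an interval of 47.9 to 10547. Il13 was at 15.2 CPM against 279, and Il4 had 1 UMI against 83.5 CPM. Calca, which encodes the neuropeptide CGRP, was at 53.2 CPM against 696, 13.1-fold lower (10.6 to 16.4). Areg, amphiregulin, an epithelial growth factor of ILC2s, was under the 2-fold limit over all members, at 423 CPM against 677. This rests on the 28 members with 20 or more UMIs of the rule genes, where Areg was at 973 CPM. In the other 136 members it was at 300.4 CPM, a log2 ratio of -1.15 and past 2-fold.

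Further genes named for low ratios were Ptpn13, a phosphatase, at 13.9 CPM against 283, and Hlf, a PAR bZIP transcription factor, at 81.0 against 786. The leukotriene receptor Cysltr1 was at 9.50 CPM against 151, and Mdfic at 13.3 against 139. Pcsk1, a prohormone convertase, had 2 UMIs in members against 74.0 CPM. Hs3st1, Edil3 and Map1b were at 3.17, 2.53 and 5.70 CPM against 106, 69.0 and 84.6. The Notch target genes Hes1 and Hey1 were at 77.2 and 14.6 CPM against 267 and 76.1, and the costimulator Icos at 331 against 1064.

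Markers of myeloid and mast cells, which also use these adaptors, were few in members, but those shared with NK cells and ILC1s were not. At least 3 UMIs of the NK and ILC1 list were in 74.4% of members and 15.9% of zero cells. Of 16 macrophage and monocyte markers, 0 reached the level needed for a comparison and 9 had no UMI in members, Csf1r, Lyz2 and C1qa among them. The summed list had at least 3 UMIs in 6.71% of members and 1.77% of zero cells. Fcer1a, the mast cell and basophil IgE receptor chain, had 0 UMIs in members. Of the mast cell list, Cma1 and Cpa3 passed 2-fold, and 1 member held 303 of 337 Cma1 and 89 of 107 Cpa3 UMIs. Without that cell and 1 member that held 1013 of 1061 Hbb-bs UMIs, the log2 ratio of Cma1 was -0.04. The list of B cell markers was carried by Ighm, at 60.2 CPM against 1.74 and seen in 34.8% of members, while Cd79a had 0 UMIs. Keratinocyte markers were alike, with 0 of 6 past 2-fold, and at least 3 UMIs of the list in 43.3% of members and 53.8% of zero cells. Other tissue lists were found in more members than zero cells: at least 3 UMIs of erythroid and platelet markers were in 24.4% of members and 3.63% of zero cells, and of fibroblast and vessel markers in 20.1% and 9.27%. Of the erythroid and platelet UMIs of members, 79.0% lay in 1 cell, and of the compared genes of that list Car2, Hba-a1, Hba-a2 and Hbb-bs were higher. That list counts Car2, described above, which had 216 UMIs in members. Hbb-bs had 48 UMIs in members outside its top cell, at most 2 in each. The 24.4% can therefore not be read as a share of members with erythroid or platelet RNA. The fibroblast and vessel list had 0 of 2 compared genes past 2-fold. The part of these cells in the results above was not tested beyond these values.

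Fewer members than zero cells passed a limit on cycling transcripts. At least 3 UMIs of 8 cycling markers were in 23.2% (16.9 to 30.4%) of members and 35.8% (33.1 to 38.6%) of zero cells. The share was 42.9% in cells with 1 to 3 UMIs of the rule genes. This limit depends on depth, which was lowest in members (medians 8885, 11002.5 and 11481 UMIs), and the shares were not thinned. The summed level of the 8 markers was 615, 963 and 832 CPM in the same order. Of the 7 cycling markers compared, Ube2c was lower, at 52.6 CPM against 136. Heat-shock genes, which can respond to tissue digestion, were higher for Hspa1a and Hspa1b of 9 compared, with Hspa1a at 1893 CPM against 826, and without cycling cells its log2 ratio of 1.19 was 0.83. The part of either in the differences was not tested, and without cycling cells 283 genes were higher and 138 lower.

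The cells near the limit divided by their number of UMIs. In the 69 cells with 1 UMI, Gata3 was at 606 CPM, Calca at 747 and Cd7 at 9.81, near their levels in zero cells. Other genes differed from zero cells: Il13 was at 138 CPM against 279, Il5 at 72.0 against 169 and Tmem176b at 63.2 against 25.6, each on the side of members, while Il22 was at 2.18 CPM (0.264 to 7.88) against 13.2. The 22 cells with 2 to 3 UMIs were low in Gata3, at 108 CPM, and in Calca, at 98.4, and their Cd7, at 117, lay between zero cells and members. Their Il22, at 745 CPM, came from 22.7% of these cells. Nrgn, at 18.7 CPM, was nearer to the 2.46 of zero cells than to the 225 of members, and Xcl1 had no UMI. Gata3 then stayed between 90.1 and 111 CPM in all 4 classes of members, as the plot of levels by UMI class shows.

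**Figure D3:**
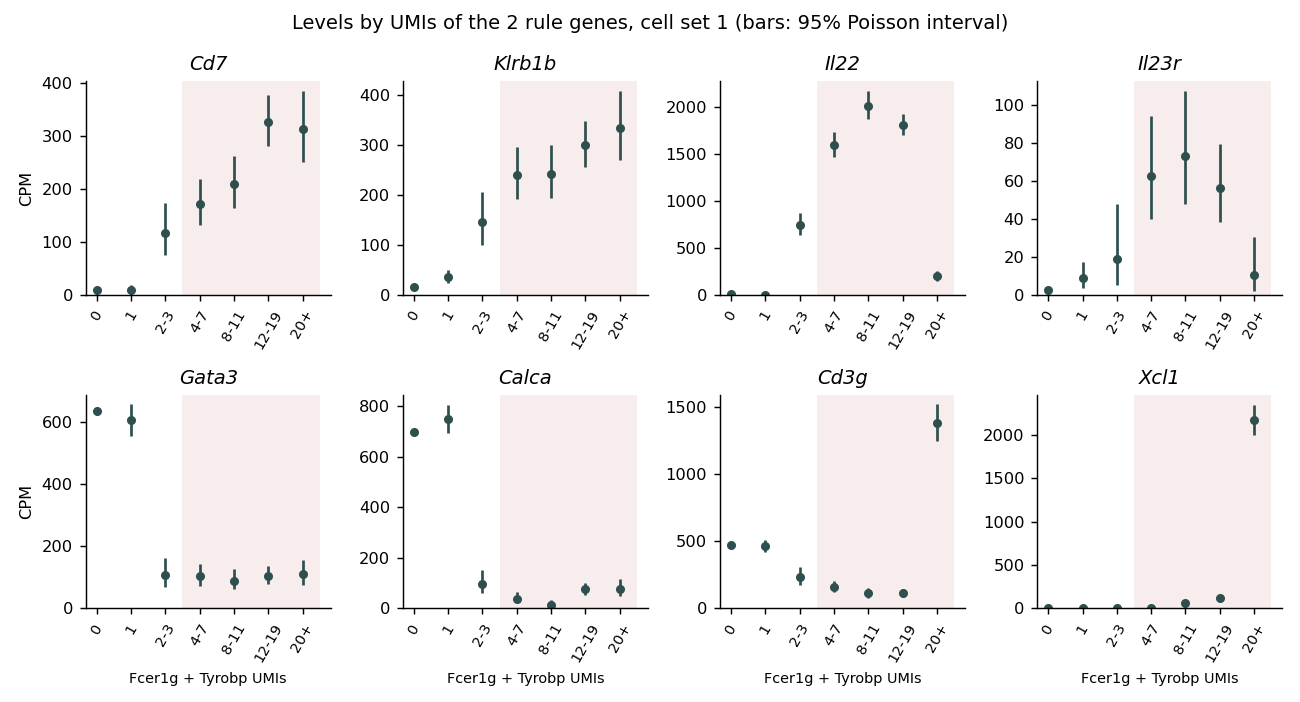
CPM of 8 genes in cells of set 1 by their UMIs of Fcer1g and Tyrobp, with 95% Poisson intervals and the member classes shaded. Gata3 and Calca are low from 2 UMIs on, and Cd3g and Xcl1 are highest in the 28 members with 20 or more UMIs, at 1380 and 2172 CPM.

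The 28 members with 20 or more UMIs differed from the other 136 in other genes too. A UMI of Cd3g, a chain of the CD3 complex, was present in 71.4% of them (51.3 to 86.8%) and in 31.6% of the rest (23.9 to 40.1%), with 1380 against 126 CPM. Xcl1 was present in 9 of 28 against 8 of 136, and Klrd1 in 42.9% against 12.5%. Trat1 was at 494 CPM against 72.8 and Ctsw at 931 against 170. The type 3 genes went the other way: Il22 was at 198 CPM against 1809, and Il23r at 10.4, from 3 UMIs, against 62.7. Tmem176b was alike, at 205 and 211 CPM. The classes had median depths of 7176 UMIs (4 to 7), 8397 (8 to 11), 10074 (12 to 19) and 9990.5 (20 or more), so the upper pair of classes was deeper than the lower pair.

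Splitting members by other genes gave a similar contrast, in overlapping cells. The split by Cd3g was chosen after values were seen. Cd3g was detected in 63 members (38.4%) and in 89.5% of zero cells, with 355 and 471 CPM. Members with Cd3g had Xcl1 at 979 CPM against 63.9 in members without, Ifitm1 at 158 against 1.10, Ifitm2 at 598 against 121, and Calca at 115 against 7.72. They had Il22 at 289 CPM against 2424, with an Il22 UMI in 17.5% against 41.6%. No member had UMIs of both Xcl1 and Il23r, which were found in 17 and 46 members. Il23r had only 84 UMIs in all members, so a member without one may still express it. No overlap over all genes was computed, and nothing is read from this one. Cd7 was at 259 and 263 CPM with and without Cd3g, Tcf7 at 244 and 281, and Klrb1b at 271 and 284, so these genes ran through both groups. Of other receptor genes, the constant regions Trbc2 and Trbc1 were at 636 and 263 CPM in members against 410 and 255 in zero cells. Cd247 was at 3.80 CPM and Trac at 9.50, both given for members alone. The list of 9 gamma delta T cell markers had 4 that could be compared. Tcrg-C1 was higher in members and Trdv4 lower, both by fixed calls. From the alpha beta T cell list, 0 of 3 compared genes passed 2-fold. In set 2, Tcrg-C1 and Trdc were higher among 5 compared gamma delta markers. Cd3d and Cd3e were higher there among 6 compared alpha beta markers, and 0 of either list were lower.

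Members with Il22 carried more MHC class II. The 53 members with an Il22 UMI had H2-Aa at 214 CPM against 15.5 in the 111 without, H2-Ab1 at 139 against 10.7, H2-Eb1 at 126 against 13.6 and the invariant chain Cd74 at 196 against 25.2. They also had Ccr7, a receptor for lymphoid tissue chemokines, at 278 CPM against 33.9, Il1r1 at 76.9 against 18.4, Il17f at 69.6 against 14.5 and Hes1 at 161 against 32.9. Among the 53, 1 cell held 44.3% of the Hes1 UMIs and 1 cell 29.6% of the Ccr7 UMIs. Of the 15 members with H2-Aa, 11 also had Il22, so few cells carry the class II result, and 1 of them held 31 of 133 H2-Aa UMIs. Of 8 dendritic cell markers outside class II, the 15 members had 5 UMIs in all, and of 16 macrophage markers 7. Class II genes were as high in cells with 1 to 3 UMIs, where H2-Ab1 was at 90.2 CPM, and 1 of those cells held 116 of the 339 UMIs of the dendritic cell list. Median depth was 9894 UMIs with Il22 and 8624 without. Of the 42 members with Il22 and no Cd3g, 39 had a label marker, as did 31 of the 52 with Cd3g and no Il22.

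**Figure D4:**
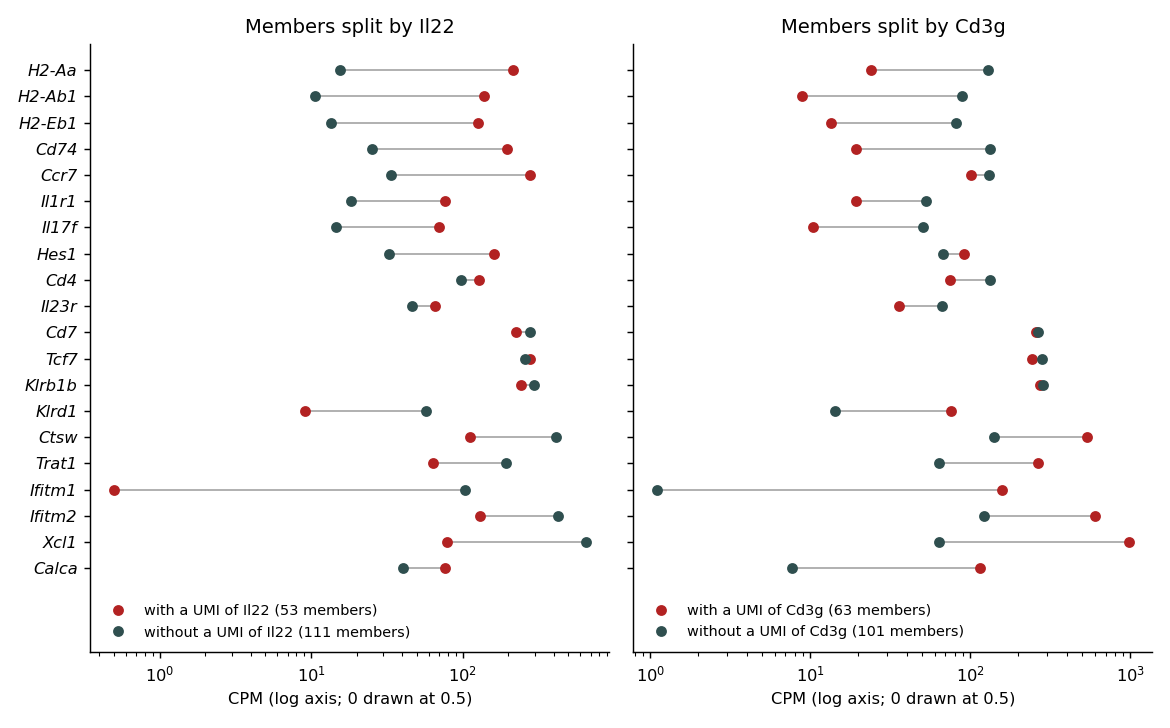
CPM (log axis, 0 drawn at 0.5) of 20 genes in members with (red) and without (dark) a UMI of Il22 (left) or Cd3g (right). H2-Aa reads 214 and 15.5 CPM by Il22, and Xcl1 979 and 63.9 CPM by Cd3g.

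Members with Cd4 had more Il22 and less Cd3g than members without. The 61 members with Cd4 had Il22 at 2683 CPM against 771 in the 103 without, and Tmem176b at 325 against 136. In each group 1 cell held much of the Il22, 28.8% and 33.3% of its UMIs. Cd3g was at 119 CPM against 505. Il23r was at 40.7 CPM against 61.2, a ratio of 0.665 (0.399 to 1.08). Split by Il22 instead, Cd4 was at 128 CPM with Il22 and 97.7 without, a ratio of 1.31 (0.953 to 1.80). Klrd1 was at 4.88 CPM with Cd4 and 63.2 without. The 46 members with Il23r had Ctsw at 91.8 CPM against 410 and Hopx at 557 against 250.4. The 45 members without Tyrobp had Il17f at 88.0 CPM, against 13.1 in those with it, and Ctsw at 88.0 against 392.

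Members also lay together in the rest of the transcriptome. With Fcer1g and Tyrobp left out of the principal components, 77.0% of the 15 nearest neighbours of a member were members, against 0.697% for zero cells, and members are 11.4% of the set. For cells with 1 UMI the share was 4.15%, and for cells with 2 to 3 UMIs 39.1%. Of 8 clusters, cluster 1 held 131 members (79.9%) among its 199 cells, and cluster 2 held 12 among 16. Cluster 1 also held 51 zero cells, 4.30% of them. The other 21 members were spread over clusters 0, 4, 5, 6 and 7, and cluster 3 held none.

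The same rule in set 2 found 58 of 3508 cells, 1.65% (1.26 to 2.13%), at a median of 5134 UMIs. Only 15 of these had both genes and 43 had Fcer1g alone. Of 4874 genes compared there, 183 were higher (3.75%) and 98 lower (2.01%) than in the 3375 zero cells of set 2. Of the 247 higher genes of set 1, 204 could be compared in set 2 and 70 were also higher, which is 34.3% of those 204 and 38.3% of the 183. Of the 129 lower genes, 103 could be compared and 31 were also lower, 30.1% and 31.6% of each list. Calls can be fixed by a low level in set 2 as well, and such calls were not counted there. The overlaps therefore describe the lists and are no measure of agreement.

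Genes of the 2 sets lined up for some groups and not for others. Nrgn was at 331 CPM against 4.99 in set 2, Cd7 at 427 against 41.6, Cd160 at 317 against 11.3, Klrb1b at 261 against 22.6 and Cd4 at 72.6 against 0.348. The set 2 calls of Nrgn and Cd4 were fixed by their low level in zero cells. Gata3 was lower there as well, at 171 CPM against 608, and Il5 at 20.3 against 249. Il22 was at 11.6 CPM, from 4 UMIs in 1 cell, against 3.66, and was too low to compare. Il23r was at 14.5 CPM and Il1r1 at 8.72. Hopx, 348 against 17.0 CPM in set 1, was at 499.7 against 514 in set 2, and Il13 was at 299 against 368. Whether these gaps belong to age, to depth or to the libraries cannot be told apart.

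**Figure D5:**
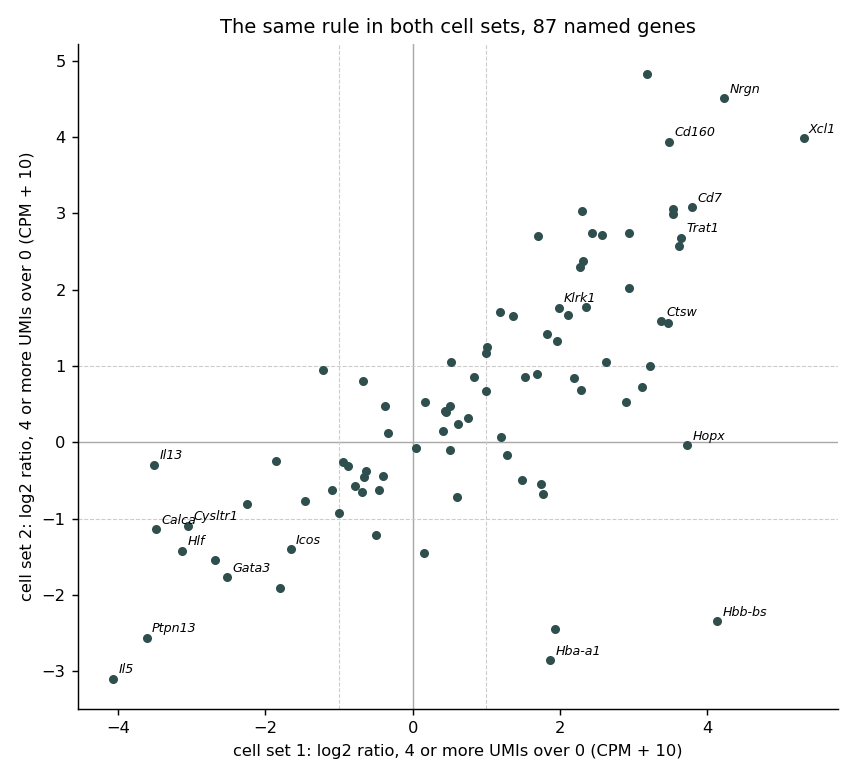
Log2 ratio (CPM + 10) of cells with 4 or more UMIs over zero cells in set 1 (x axis) and set 2 (y axis) for the 87 named genes compared in both, with dashed lines at 2-fold. The ratio had the same sign in 71 of the 87. These genes were named largely by the size of their set 1 ratio, and no such share was computed over all genes. Hopx sits at 3.73 in set 1 and -0.04 in set 2.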

How the data were processed

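The deposited table holds UMI counts of 18786 genes, whole numbers that the authors made with Cell Ranger 3.1.0 and Seurat 4.1.0 on mm10, per the submitters' processing notes. Settings, that for strand included, are not given in the sources used. Its columns map to no labelled sample, so it was treated as 1 pooled sample. Members and 34 gene lists were chosen with earlier results of these data known, and no list is independent evidence.

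UMIs were summed per group and given as CPM with exact Poisson 95% intervals, ratios with exact binomial intervals and shares with Clopper-Pearson intervals, which treat UMIs as independent although some genes come from few cells. A count of 0 allows 3 UMIs. Named genes were the label markers, the 20 highest and 12 lowest log2 ratios (UMI in at least 10% of the higher group, no cell with over 25% of its UMIs, unnamed, ribosomal, mitochondrial, haemoglobin, receptor segment and sex-linked genes left out) and up to 4 per list. Ncr1, Ltb, Ccr6, Areg, Tmem176a and other genes named outside this rule were chosen after their values were seen. Positions are from the GENCODE annotation. Neighbours used scanpy 1.11.5 with 2000 variable genes, 30 principal components and 15 neighbours, and Leiden resolution 0.5. Scrublet called 7 doublets in set 1, 2 of them members, which stayed in. The ratios were checked on simulated counts. edgeR 4.0.16 gave TMM factors as an alternative scaling only.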

Additional observations from a re-analysis of the deposited data

Results flagged for a closer look

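The ratios of haemoglobin genes went opposite ways in the 2 sets, and those of set 1 came largely from 1 cell per gene. The log2 ratio of Hbb-bs was 4.14 in set 1 and -2.35 in set 2, that of Hba-a2 was 1.93 and -2.44, and that of Hba-a1 was 1.87 and -2.86. The difference between the sets was not tested. In set 1, 1 member held 1013 of the 1061 Hbb-bs UMIs of members, and it had 10697 UMIs in all with 7 of Fcer1g and 3 of Tyrobp. Among the 149 members without H2-Aa, 1 cell held 78.7% of the Hba-a1 UMIs and 1 cell 84.1% of the Hba-a2 UMIs. The set 1 ratios therefore give no direction for members at large.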

How the results depend on the processing

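Of 222 recomputed values for the class size, the neighbour share and the counts of called genes and list markers, 211 were within the counting interval or within 1.5 times. A limit of 6 UMIs gave a class of 9.72% of set 1. With a summed CPM of at least 100, 139 genes were higher and 72 lower, with 4 ILC3 and LTi markers and 3 NK and ILC1 markers higher, since fewer genes were compared. Leaving out cells with at least 3 UMIs of other cell types' lists left 75 members, and gave 1 lower ILC3 and LTi marker, 1 higher ILC2 marker, 2 lower precursor markers and 4 higher NK and ILC1 markers. Without Kit, Ighm and Epcam in those lists, 116 members were left and 2 precursor markers were lower. Without the top cell of each gene, 4 NK and ILC1 markers were higher. The cause of the other moves was not tested.

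Among 83 named genes past 2-fold, 80 kept their direction under all 18 alternatives and 63 stayed past 2-fold. Those that turned were Cma1, Cpa3 and Ccl5. The log2 ratio of Cma1 was -0.03 without Scrublet doublets and without its top cell, -0.68 without cells with UMIs of other types (-0.28 with Kit, Ighm and Epcam not counted), -0.04 without the Hbb-bs and Cma1 cells and -0.15 in members with under 20 UMIs. That of Cpa3 was -0.19 and -0.23 under both filters on other types, and that of Ccl5 was -0.00 under the first. The class II genes were under 2-fold there too, with H2-Aa at 0.14, because these filters count H2-Aa itself. Alternatives on single cells, on members with under 20 UMIs and with Kit, Ighm and Epcam not counted were chosen after seeing the data. No paired analysis was possible because the 2 sets carry no labelled replicates. At the members' depth, genes under about 1.90 CPM cannot be told from 0.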
